A study of Mus musculus with 18 samples.

Results

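H19, Igf2, Gpc3, Golm1, Tff3, Cd24a, Peg3 and Igf2bp3 are genes that the fetal liver uses or that are known from liver tumours and injured liver. They were taken by symbol, 8 of the 54752 genes in the table of counts, and each symbol matched 1 row. Of these, 7 were among the 21914 genes with enough counts to be fitted, and Igf2 was not. Liver RNA of 18 male C57BL/6 mice was measured, 1 library per mouse and 6 mice in each of 3 groups, to ask how carbon tetrachloride (CCl4) cirrhosis alters liver RNA and what Pien Tze Huang, a traditional Chinese medicine abbreviated PTH, does to it. Mice of the Control group were injected intraperitoneally with corn oil, 10 µl per g of body weight 2 times each week over 12 weeks, and had double distilled water by mouth daily. Cirrhosis mice received 10% CCl4, a solvent that injures hepatocytes, in that volume and on that schedule, with the same water. For Cirrhosis-PTH mice the CCl4 was the same, and a daily oral dose of 0.25 mg PTH per g, taken from a 50 mg/ml solution, replaced the water. All mice were 6 weeks old at purchase, and no group received PTH without CCl4. The protocols describe 45 mice, 15 per group, and how the 18 were chosen from them is not stated.

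The fetal liver grows under insulin-like growth factor 2, the product of Igf2, a gene expressed from the paternal chromosome only. H19, its neighbour, is a long noncoding RNA expressed from the maternal chromosome and is shut down in the liver after birth along with Igf2 and Afp, the gene of alpha-fetoprotein. Igf2bp3 binds Igf2 and other messenger RNAs in the embryo. Gpc3 is a heparan sulfate proteoglycan of the cell surface, Golm1 a membrane protein of the Golgi (GP73), Cd24a a glycoprotein anchored to the surface of immature and biliary cells, Tff3 a secreted trefoil peptide of mucous surfaces, and Peg3 an imprinted zinc finger protein. Glypican 3, GP73 and alpha-fetoprotein are used as markers of hepatocellular carcinoma.

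The reference sequences at the starts of Golm1, Gpc3 and Peg3 are shown because Golm1 and Gpc3 were among the genes that rose in Cirrhosis, while Peg3, which did not pass the test, shares its promoter window with the start of Usp29. They are from RefSeq (GRCm38.p6), 5′ to 3′ on the strand of the gene, and run from 250 bases before to 50 after the start site. Golm1 is at chr13:59675735-59676034, Gpc3 at chrX:52613925-52614224 and Peg3 at chr7:6730370-6730669, all on the minus strand. Capitals mark matches to the motifs listed after the sequences.
Golm1: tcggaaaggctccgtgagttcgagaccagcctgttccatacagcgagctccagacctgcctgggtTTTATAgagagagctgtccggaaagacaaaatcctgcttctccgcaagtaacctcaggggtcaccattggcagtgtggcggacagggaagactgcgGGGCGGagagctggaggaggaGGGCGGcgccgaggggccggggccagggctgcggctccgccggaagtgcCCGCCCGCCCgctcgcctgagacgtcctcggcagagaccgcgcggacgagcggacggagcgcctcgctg
Gpc3: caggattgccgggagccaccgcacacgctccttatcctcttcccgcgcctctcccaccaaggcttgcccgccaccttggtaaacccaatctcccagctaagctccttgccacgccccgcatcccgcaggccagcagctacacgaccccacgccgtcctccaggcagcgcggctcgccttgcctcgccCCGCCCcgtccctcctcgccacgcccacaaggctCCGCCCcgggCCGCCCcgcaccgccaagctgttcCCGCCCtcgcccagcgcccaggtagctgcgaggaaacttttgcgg
Peg3: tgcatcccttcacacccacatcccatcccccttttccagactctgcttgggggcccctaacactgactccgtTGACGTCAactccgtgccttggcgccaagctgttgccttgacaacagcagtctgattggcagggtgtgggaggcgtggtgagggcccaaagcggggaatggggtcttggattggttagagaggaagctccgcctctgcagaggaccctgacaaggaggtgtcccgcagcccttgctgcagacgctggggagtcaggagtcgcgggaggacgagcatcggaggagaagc
The motifs were searched on both strands. They were the GC box GGGCGG, which 35.7% of the 32851 RefSeq promoters of this length held, the TATA box TATAAA (13.6%), the cAMP response element TGACGTCA (1.79%), the AP-1 site TGANTCA (7.81%), the E-box CACGTG (7.15%) and the YY1 site GCCATNTT (6.05%). The Golm1 window held 4 GC boxes, of which the last pair overlaps, and 1 TATA box on the opposite strand. In the Gpc3 window there were 4 GC boxes, and in the Peg3 window 1 cAMP response element. Golm1 and Gpc3 had 30 CpG dinucleotides each and Peg3 had 13, against a median of 7 over all promoters. Their GC content was 67.0%, 70.7% and 61.3%, against a median of 52.7%. A match of letters is a description and shows no binding. RefSeq's table held promoters for 5 of the 8 genes, and H19, Tff3 and Cd24a had no entry.

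The microRNA miR-675 lies within an exon of H19 and is shown because it is cut from that transcript. Capitals mark the seed, bases 2 to 8 of the mature strand, and the arms are at chr7:142577112-142577133 and chr7:142577078-142577099 on the minus strand (GRCm38.p6).
mmu-miR-675-5p: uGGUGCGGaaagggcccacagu
mmu-miR-675-3p: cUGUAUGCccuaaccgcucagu
The seeds of the arms, GGUGCGG and UGUAUGC, differ. The Mir675 row had 1, 5 and 4 counts in the 3 groups in order. These libraries were made for long RNA, and mature miR-675 was not measured.

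Libraries held 62.5 to 112 M counts, of which 24.5 to 67.5 M lay outside the loci that collect ribosomal RNA reads. The share in those loci was 39.9 to 60.8% in Control, 37.1 to 41.0% in Cirrhosis and 31.4 to 48.8% in Cirrhosis-PTH. Levels are CPM, the count divided by the scaled library size in M counts, and a gene with no count in a library could have up to 0.0233 to 0.0831 CPM there, the value of 3 counts, for counting error only. No pair of libraries in a group had the same values. All adjusted p-values of the fit come from edgeR's quasi-likelihood test with Benjamini-Hochberg adjustment over 21914 genes, and a gene was called past 0.05. In bulk liver, fewer cells of a type and less RNA per cell cannot be told apart.

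Of the 7 fitted genes, 4 rose in Cirrhosis against Control (H19, Gpc3, Golm1 and Cd24a) and 1 fell (Tff3), with Peg3 and Igf2bp3 not called. Over all fitted genes, 25.5% rose and 25.0% fell. Between Cirrhosis-PTH and Cirrhosis, 3 fell (Golm1, Cd24a and H19), none rose and 4 were not called, against 18.6% of all fitted genes lower and 20.1% higher. Between Cirrhosis-PTH and Control, 3 rose (Gpc3, Golm1 and Cd24a), 1 fell (Tff3) and 3 were not called, against 6.34% higher and 2.48% lower over all. The median log2 fold change of the 7 was 1.95, -1.08 and 0.76 in the 3 comparisons, and that of all fitted genes was 0.02, -0.003 and 0.006. Each pair of comparisons shares a group, so they are not independent. A change called "under PTH" is that of Cirrhosis-PTH against Cirrhosis, both of which received CCl4.

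**Figure D1:**
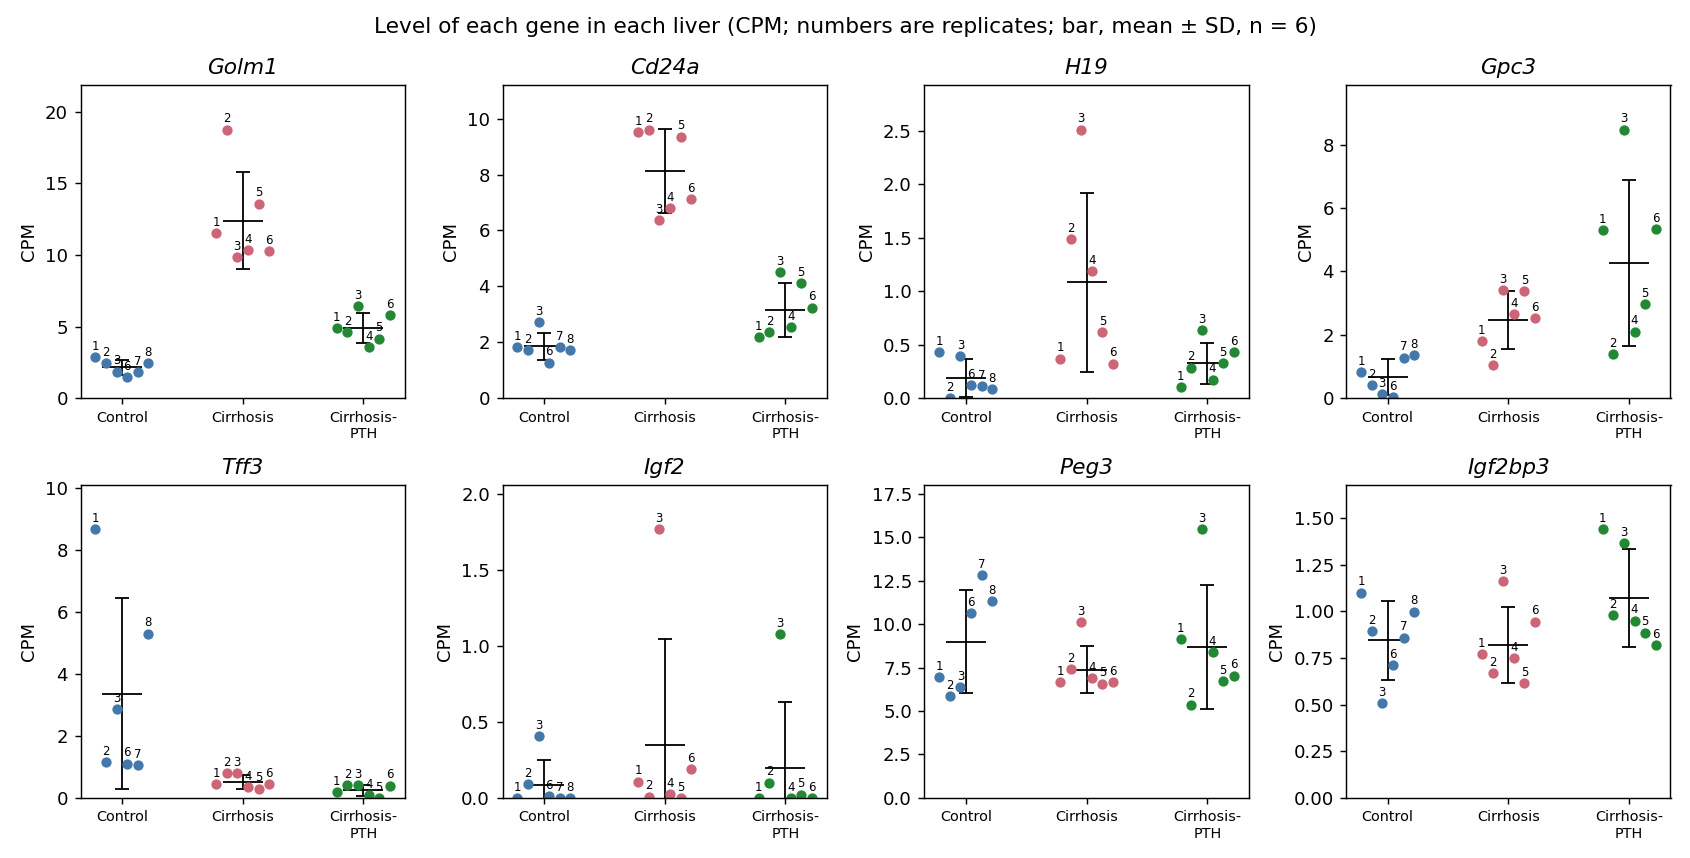
CPM of the 8 genes in each of the 18 libraries, by group, with the mean and SD (n = 6 per group), where an SD below 0 is not drawn. Golm1 and Cd24a lie highest in Cirrhosis and between the other groups in Cirrhosis-PTH, Gpc3 is highest in Cirrhosis-PTH, and Tff3 is lowest there.

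**Figure D2:**
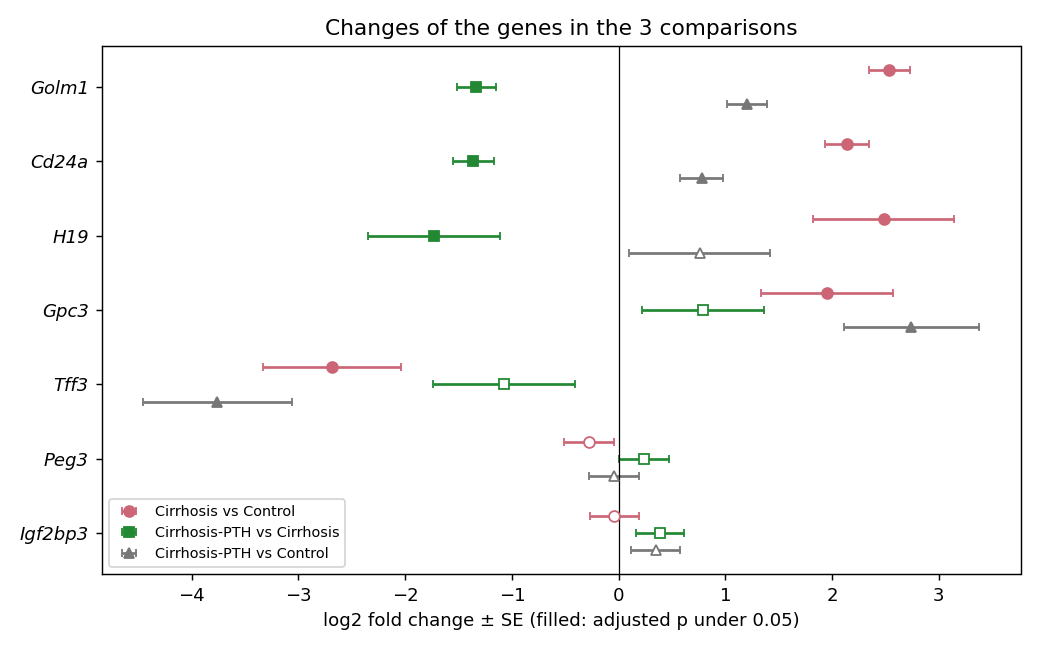
Log2 fold change of the 7 fitted genes with its standard error in the 3 comparisons, where filled symbols passed the test. Golm1, Cd24a, Gpc3 and H19 lie above 0 in Cirrhosis against Control, and Golm1, Cd24a and H19 lie below 0 in Cirrhosis-PTH against Cirrhosis.

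Golm1 (ENSMUSG00000021556, chr13:59634626-59675811, minus strand, GRCm38) rose most clearly. It was 1.44 to 2.84 CPM in Control (median 2.14), 9.86 to 18.8 in Cirrhosis (median 10.9) and 3.58 to 6.45 in Cirrhosis-PTH (median 4.76). No library of one group reached a library of another, so the groups did not overlap in any comparison. Means were 2.14 ± 0.519, 12.4 ± 3.40 and 4.91 ± 1.06 CPM (SD, n = 6). The log2 fold change was 2.54 ± 0.19 (SE, adjusted p = 1.29e-09) in Cirrhosis against Control, 5.81-fold. In Cirrhosis-PTH against Cirrhosis it was -1.33 ± 0.18 (adjusted p = 5.25e-06), and against Control 1.20 ± 0.19 (adjusted p = 0.000324), so PTH mice lay 2.30-fold above Control. Libraries of the groups did not overlap in the higher direction for 15.6% and in the lower for 14.7% of all genes in Cirrhosis against Control. For Cirrhosis-PTH against Cirrhosis these shares were 11.8% and 11.0%, and for Cirrhosis-PTH against Control 3.07% and 1.40%. Exons of Naa35, on the opposite strand, cover 1297 bases of Golm1's exons (29.3%), and whether the counting used strand is not stated. Naa35 moved the other way, with a log2 fold change of -0.31 ± 0.07 (adjusted p = 0.000578) in Cirrhosis against Control and 0.19 ± 0.07 (adjusted p = 0.0309) in Cirrhosis-PTH against Cirrhosis.

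Cd24a (ENSMUSG00000047139, chr10:43578284-43584265, plus strand) followed a like course. Its levels were 1.27 to 2.72 CPM in Control (median 1.77), 6.36 to 9.61 in Cirrhosis (median 8.23) and 2.17 to 4.50 in Cirrhosis-PTH (median 2.89). Every Cirrhosis library was above every Control and every Cirrhosis-PTH library, and 3 of 6 Cirrhosis-PTH libraries were above the highest Control. Means were 1.85 ± 0.477, 8.12 ± 1.52 and 3.16 ± 0.970 CPM (SD, n = 6). The log2 fold change was 2.14 ± 0.20 (adjusted p = 2.19e-08) in Cirrhosis against Control and -1.36 ± 0.19 (adjusted p = 8.77e-06) in Cirrhosis-PTH against Cirrhosis. Against Control, Cirrhosis-PTH was higher by 0.78 ± 0.20 (adjusted p = 0.0162). Without Cirrhosis-PTH replicate 3 this last call was lost, at 0.65 with adjusted p = 0.0528. Both genes are expressed by biliary and progenitor-like cells among others. The sum of 8 cholangiocyte markers, Krt19, Krt7 and Epcam among them, was 28.3 to 56.1 CPM in Control, 96.2 to 213 in Cirrhosis and 35.3 to 94.3 in Cirrhosis-PTH. In Cirrhosis against Control 7 of the 8 rose and 1 fell, and in Cirrhosis-PTH against Cirrhosis 3 fell. Most of the sum came from Spp1 (20.1, 109 and 35.1 CPM in the groups in order) and Sox9 (5.71, 22.8 and 5.94 CPM), which are not limited to bile duct cells. The keratins Krt19 (0.398, 1.69 and 1.64 CPM) and Krt7 (0.520, 1.21 and 1.02 CPM) rose in Cirrhosis and were not called under PTH, at -0.04 ± 0.39 (adjusted p = 0.955) and -0.25 ± 0.37 (adjusted p = 0.652) on the log2 scale. Cd24a is also carried by B cells and neutrophils. B cell markers summed to 2.60 to 7.72, 6.91 to 10.6 and 6.26 to 9.61 CPM, and none of the 5 was called between Cirrhosis-PTH and Cirrhosis. Neutrophil markers summed to 0.179 to 6.40, 7.49 to 114 and 1.49 to 7.44 CPM, and of 5 fitted, 5 rose in Cirrhosis and 4 fell under PTH. The sum of 114 was that of Cirrhosis replicate 2, the highest library for Golm1 and Cd24a, and the next was 13.5. No marker of these lists was at 0 in all libraries of a group, and the part of these cells in the Cd24a and Golm1 differences was not tested.

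Gpc3 (ENSMUSG00000055653, chrX:52272426-52613950, minus strand) rose in Cirrhosis, and its mean was higher still in Cirrhosis-PTH. It was 0.0406 to 1.36 CPM in Control (median 0.616), 1.04 to 3.40 in Cirrhosis (median 2.59) and 1.39 to 8.47 in Cirrhosis-PTH (median 4.13). In Cirrhosis 5 of 6 libraries were above the highest Control library, and in Cirrhosis-PTH all 6 were. Means were 0.671 ± 0.571, 2.46 ± 0.921 and 4.26 ± 2.63 CPM (SD, n = 6). The log2 fold change was 1.95 ± 0.62 (adjusted p = 0.0146) in Cirrhosis against Control and 2.74 ± 0.63 (adjusted p = 0.0111) in Cirrhosis-PTH against Control. Between Cirrhosis-PTH and Cirrhosis it was 0.79 ± 0.57 (adjusted p = 0.303), with 3 of 6 libraries above the highest Cirrhosis library. Control replicates 7 and 8 were the highest Control libraries for Gpc3, at 1.28 and 1.36 CPM. Leaving them out gave 2.90 and 3.66 in the comparisons with Control. With 1 library left out, these log2 fold changes ran from 1.67 to 2.27 and from 2.42 to 3.06. Gpc3 is strong in mesothelium, and 4 mesothelial markers (Msln, Upk3b, Wt1 and Gpm6a) summed to 1.46 to 7.51 CPM in Control, 4.62 to 15.0 in Cirrhosis and 7.06 to 34.7 in Cirrhosis-PTH. Of those 4, 1 rose in Cirrhosis against Control, 2 in Cirrhosis-PTH against Cirrhosis and 3 in Cirrhosis-PTH against Control. Over all fitted genes, 25.5%, 20.1% and 6.34% rose in these comparisons in order. Replicate 3 of Cirrhosis-PTH had the highest marker sum and the highest Gpc3 level, and the part of mesothelial cells in the difference was not tested.

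**Figure D3:**
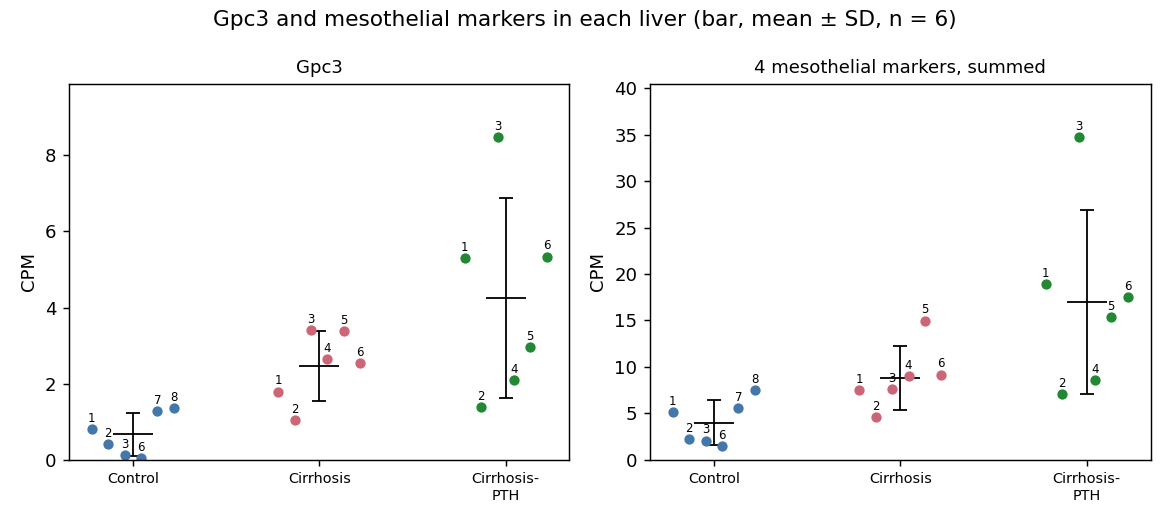
CPM of Gpc3 in each library (left) and summed CPM of the 4 mesothelial markers (right), by group, with the mean and SD (n = 6). Numbers are replicates. Cirrhosis-PTH replicate 3 is highest in both, at 8.47 and 34.7 CPM.

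The other glypicans and the genes that build or trim heparan sulfate did not move as 1 group. Of 15 fitted genes 6 rose and 6 fell in Cirrhosis against Control (median -0.05 on the log2 scale), 7 rose and 3 fell in Cirrhosis-PTH against Cirrhosis, and 2 rose in Cirrhosis-PTH against Control. Shares higher and lower over all fitted genes were 25.5% and 25.0%, 20.1% and 18.6%, and 6.34% and 2.48%. The 6 that rose became 3 without Cirrhosis replicate 2, Cirrhosis replicate 6 or Control replicate 3. Gpc1 rose by 0.92 ± 0.19 in Cirrhosis (adjusted p = 0.000552) and fell by 0.84 ± 0.19 under PTH (adjusted p = 0.00158). Gpc4 went the opposite way, at -0.47 ± 0.07 (adjusted p = 1.99e-05) and 0.30 ± 0.07 (adjusted p = 0.00262). Gpc6 rose by 0.65 ± 0.27 (adjusted p = 0.048) in Cirrhosis and its change under PTH was -0.61 ± 0.26 (adjusted p = 0.0724). Notum, also on this list, was 18.5, 7.17 and 18.7 CPM in Control, Cirrhosis and Cirrhosis-PTH. Its log2 fold changes of -1.37 and 1.38 in the first and second comparison both passed the test. Ndst1, an enzyme that sulfates the chains, and Sdc2, a syndecan, fell by 0.56 and 0.77 in Cirrhosis and rose by 0.43 and 0.59 under PTH.

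H19 (ENSMUSG00000000031, chr7:142575529-142578143, minus strand) was at a low level in every group. It was 0 to 0.429 CPM in Control (median 0.116), 0.321 to 2.51 in Cirrhosis (median 0.901) and 0.103 to 0.635 in Cirrhosis-PTH (median 0.303), from 73, 745 and 178 counts in all. In Cirrhosis 4 of 6 libraries were above the highest Control, and in Cirrhosis-PTH 3 of 6 were below the lowest Cirrhosis library. Means were 0.189 ± 0.176, 1.08 ± 0.839 and 0.324 ± 0.191 CPM (SD, n = 6). H19 rose in Cirrhosis by 2.49 ± 0.66 on the log2 scale (adjusted p = 0.00369) and changed by -1.73 ± 0.62 in Cirrhosis-PTH against Cirrhosis (adjusted p = 0.0326). The second call was lost without any of Cirrhosis replicates 2, 3 or 4 or Cirrhosis-PTH replicates 1, 2, 4 or 5, where the adjusted p was 0.0531 to 0.107. Between Cirrhosis-PTH and Control the log2 fold change was 0.76 ± 0.66 (adjusted p = 0.544).

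Igf2 (ENSMUSG00000048583, chr7:142650766-142666816, minus strand) had 31, 228 and 109 counts over the Control, Cirrhosis and Cirrhosis-PTH libraries. Its level was 0 to 0.406 CPM in Control (median 0.00507), 0 to 1.77 in Cirrhosis (median 0.0663) and 0 to 1.08 in Cirrhosis-PTH (median 0.0104). Replicate 3 was the highest library in each group and held 193 of the 228 Cirrhosis counts and 100 of the 109 in Cirrhosis-PTH, and the groups overlapped throughout. A two-sided exact permutation test of the mean CPM over all arrangements of 6 against 6 libraries gave p = 0.5195, 0.5303 and 0.684 in the 3 comparisons in order, each 0.684 after adjustment, where the smallest p possible is 0.0022. The ratio of the means, 2.05 on the log2 scale in Cirrhosis against Control, became -0.36 without Cirrhosis replicate 3. The row Gm49394 (ENSMUSG00000115302, chr7:142650769-142669942), a protein-coding model on the same strand, shares 3596 exonic bases with Igf2, which is 62.8% of Igf2's exons. Reads from those bases could have been given to either row. The Gm49394 row had 0 counts in replicate 3 of Cirrhosis and of Cirrhosis-PTH, and 174, 136 and 136 in Cirrhosis replicates 2, 4 and 5, where Igf2 had 1, 3 and 0.

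The counts of both rows were therefore added, a choice made after their values were seen. The groups in order had sums of 0.361 ± 0.226, 1.14 ± 0.443 and 0.379 ± 0.404 CPM (SD, n = 6). Its log2 fold change in Cirrhosis against Control was 1.62 ± 0.66 (adjusted p = 0.049), and 13 of 18 fits that left out 1 library lost this call, with adjusted p between 0.0149 and 0.093 over the 18. In Cirrhosis-PTH against Cirrhosis it was -1.57 ± 0.65 (adjusted p = 0.0649) and against Control 0.05 ± 0.67 (adjusted p = 0.978). The former passed at -2.22 (adjusted p = 0.0105) without Cirrhosis-PTH replicate 3 and at -1.62 (adjusted p = 0.033) with DESeq2. No other fit that left out 1 library passed there.

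**Figure D4:**
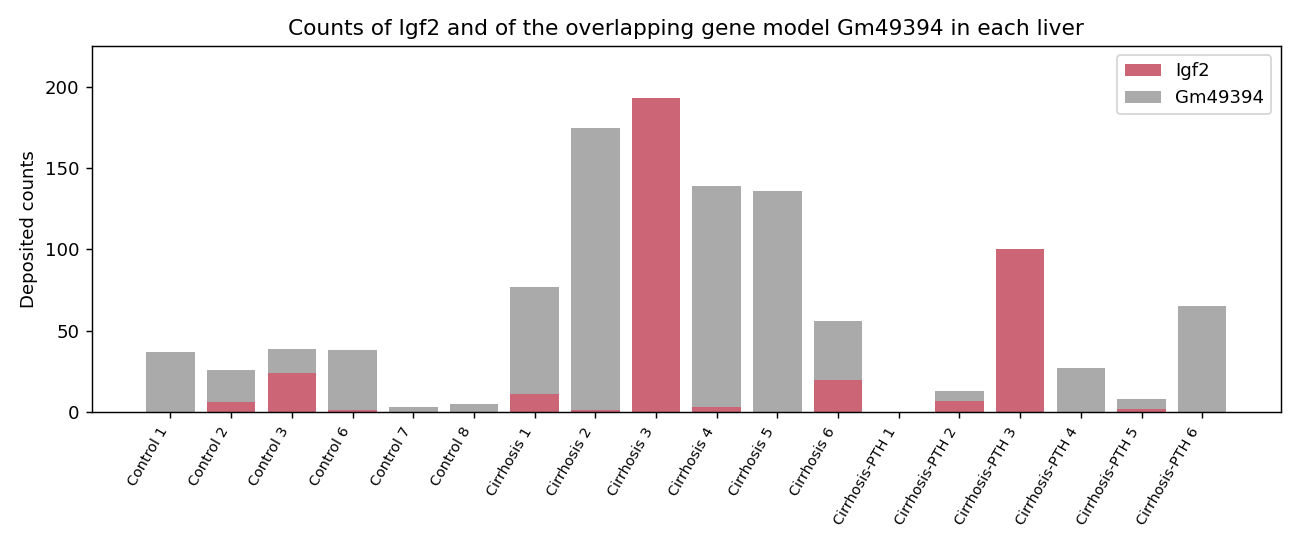
Deposited counts of the Igf2 row and of the overlapping Gm49394 row in each of the 18 libraries, as stacked bars. Replicate 3 of Cirrhosis and of Cirrhosis-PTH has Igf2 and no Gm49394, while Cirrhosis replicates 2, 4 and 5 have Gm49394 and little Igf2.

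The insulin-like growth factor axis around Igf2 split. Of 18 fitted genes other than the 8, 8 rose and 7 fell in Cirrhosis against Control, and 7 rose and 5 fell in Cirrhosis-PTH against Cirrhosis. Shares higher and lower over all fitted genes were 25.5% and 25.0% in the first comparison and 20.1% and 18.6% in the second. Igf1, the postnatal liver's own growth factor, was 478, 256 and 502 CPM in Control, Cirrhosis and Cirrhosis-PTH, with log2 fold changes of -0.90 ± 0.14 (adjusted p = 1.42e-05) and 0.97 ± 0.14 (adjusted p = 9.29e-06). Igfals, the subunit that keeps IGF in the circulation, changed by -1.60 ± 0.15 and 1.36 ± 0.15. Igfbp1, an IGF binding protein induced in stressed liver, was 10.2, 234 and 11.8 CPM and changed by 4.53 ± 0.36 and -4.31 ± 0.35. Its adjusted p-values were 2.46e-08 and 9.18e-08. The signalling receptor Igf1r rose by 0.69 ± 0.15 in Cirrhosis (adjusted p = 0.000702), with -0.24 ± 0.15 under PTH (adjusted p = 0.24). The clearance receptor Igf2r, also imprinted, rose by 0.38 ± 0.07 and fell by 0.45 ± 0.07. Insr, the insulin receptor, and Igfbp4 fell by 0.82 and 0.88 in Cirrhosis and rose by 0.78 and 0.88 under PTH.

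Igf2bp3 (ENSMUSG00000029814, chr6:49085223-49214957, minus strand) was not called in any comparison. It was 0.508 to 1.10 CPM in Control (median 0.876), 0.617 to 1.16 in Cirrhosis (median 0.759) and 0.819 to 1.44 in Cirrhosis-PTH (median 0.964), and the ranges overlapped. Log2 fold changes were -0.04 ± 0.23 (adjusted p = 0.895), 0.39 ± 0.23 (adjusted p = 0.189) and, against Control, 0.35 ± 0.23 (adjusted p = 0.397). Its paralogue Igf2bp2 was 0.737 ± 0.274, 7.34 ± 3.31 and 1.25 ± 0.355 CPM. It rose by 3.29 ± 0.33 in Cirrhosis (adjusted p = 6.1e-08) and fell by 2.56 ± 0.31 under PTH (adjusted p = 1.55e-06), with no overlap between libraries in either comparison. Igf2bp1 had 0, 26 and 14 counts, too few to be fitted. Exons of Malsu1, on the other strand, cover 1529 bases (18.7%) of Igf2bp3's exons. These bases are 40.5% of the exons of Malsu1, whose mean was 6.26, 4.06 and 5.62 CPM in the groups in order. Whether the counting used strand is not stated, so Malsu1 reads could be in the Igf2bp3 row. Malsu1 changed by -0.62 ± 0.12 (adjusted p = 0.000132) in Cirrhosis and 0.47 ± 0.12 (adjusted p = 0.00276) under PTH.

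Peg3 (ENSMUSG00000002265, chr7:6703892-6730431, minus strand) did not pass the test in any comparison. It was 5.83 to 12.8 CPM in Control (median 8.78), 6.58 to 10.1 in Cirrhosis (median 6.78) and 5.36 to 15.5 in Cirrhosis-PTH (median 7.71). Log2 fold changes were -0.28 ± 0.24 (adjusted p = 0.345), 0.23 ± 0.23 (adjusted p = 0.477) and, against Control, -0.05 ± 0.24 (adjusted p = 0.939). Control replicates 1, 2 and 3 lay at 6.93, 5.83 and 6.38 CPM and replicates 6, 7 and 8 at 10.6, 12.8 and 11.3, so that Control alone spanned the whole range of the Cirrhosis libraries. Usp29, which starts at position 6730578 within the printed Peg3 window and runs the other way, had 10, 0 and 11 counts in the groups in order.

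Other imprinted genes differed in direction. Of 28 fitted of 37 listed, 13 rose and 6 fell in Cirrhosis against Control, 7 rose and 7 fell in Cirrhosis-PTH against Cirrhosis, and 9 rose and 1 fell in Cirrhosis-PTH against Control, the latter 0 to 2 with 1 library left out. Shares higher and lower over all fitted genes were 25.5% and 25.0%, 20.1% and 18.6%, and 6.34% and 2.48%. Peg10, active in placenta and fetal liver, was 1.81, 7.09 and 2.46 CPM and changed by 1.96 ± 0.27 (adjusted p = 3.79e-06) and -1.53 ± 0.26 (adjusted p = 8.19e-05). Grb10, which restrains insulin and IGF signalling, changed by 1.58 ± 0.14, by -0.84 ± 0.14 and, against Control, by 0.74 ± 0.14, all past the threshold. Slc38a4, an amino acid transporter, went the other way, at -1.26 ± 0.12 and 1.26 ± 0.12. Dlk1, a marker of hepatoblasts, had 4, 61 and 20 counts. Meg3, a maternally expressed noncoding RNA, was 1.88 ± 0.852, 3.18 ± 1.37 and 10.5 ± 5.15 CPM. It rose in Cirrhosis-PTH against Cirrhosis by 1.73 ± 0.41 (adjusted p = 0.00246) and against Control by 2.46 ± 0.42 (adjusted p = 0.00135), while Cirrhosis against Control gave 0.74 ± 0.41 (adjusted p = 0.149).

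Tff3 (ENSMUSG00000024029, chr17:31125306-31129646, minus strand) fell in Cirrhosis, alone among the 7. It was 1.06 to 8.66 CPM in Control (median 2.01), 0.299 to 0.807 in Cirrhosis (median 0.441) and 0 to 0.420 in Cirrhosis-PTH (median 0.292). Every Control library was above every library of both other groups. Means were 3.36 ± 3.08, 0.519 ± 0.222 and 0.247 ± 0.182 CPM (SD, n = 6). The log2 fold change was -2.68 ± 0.65 (adjusted p = 0.00208) in Cirrhosis against Control and -3.76 ± 0.70 (adjusted p = 0.00225) in Cirrhosis-PTH against Control. Between Cirrhosis-PTH and Cirrhosis it was -1.08 ± 0.67 (adjusted p = 0.226), with 3 of 6 libraries below the lowest Cirrhosis library. Control replicate 1 was the highest at 8.66 CPM, and without it the 2 called values were -2.13 and -3.20. Few of the 10 other trefoil, mucin and mucosal genes had enough counts to be fitted, and how many passed varied with the filter. The surface mucin Muc1 rose in Cirrhosis by 1.39 ± 0.34 (adjusted p = 0.00194).

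The wider set of fetal, progenitor and tumour-linked liver genes, a list chosen with earlier results of these data known, leaned the way of Golm1 and Cd24a. Of 22 fitted of 27 listed, 21 rose and none fell in Cirrhosis against Control (median log2 fold change 2.44), and 18 fell and none rose in Cirrhosis-PTH against Cirrhosis (median -1.63). Of all fitted genes, 25.5% rose in the first of these comparisons and 18.6% fell in the second. In Cirrhosis-PTH against Control 10 rose, none fell and 12 were not called (median 0.71), against 6.34% higher over all. Those 10 became 4 without Cirrhosis-PTH replicate 6, 5 without Cirrhosis-PTH replicate 3 or Control replicate 3, and 6 without Control replicate 6. Anxa2, a membrane-binding annexin, was 5.30, 89.5 and 9.47 CPM and changed by 4.08 ± 0.22 and -3.24 ± 0.21. Ly6d, a surface protein of progenitor cells, was 0.296, 31.8 and 1.25 CPM and changed by 6.87 ± 0.48 and -4.66 ± 0.40. The glycolytic enzymes Pkm and Hk2, both forms that fetal liver and tumours favour, changed by 2.45 and 2.36 in Cirrhosis and by -1.83 and -1.67 under PTH. All these passed the test. Epcam, Prom1, Sox9 and Spp1 stand in this list and among the cholangiocyte markers. Afp, the classical fetal marker, was not called in any comparison. It was 1.87 ± 0.876, 2.68 ± 0.668 and 2.98 ± 0.723 CPM, with log2 fold changes of 0.51 ± 0.28 (adjusted p = 0.135), 0.15 ± 0.27 (adjusted p = 0.714) and, against Control, 0.67 ± 0.28 (adjusted p = 0.154).

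Transcription factors known to repress fetal genes or to hold the hepatocyte programme were lower in Cirrhosis in most cases. Of 15, 10 fell and 2 rose in Cirrhosis against Control, where 25.0% of all fitted genes fell and 25.5% rose. In Cirrhosis-PTH against Cirrhosis 8 rose and 2 fell, against 20.1% higher and 18.6% lower over all. Zhx2, which represses Afp, H19 and Gpc3 after birth in mice, was 20.4, 17.3 and 17.2 CPM. It fell by 0.24 ± 0.09 in Cirrhosis (adjusted p = 0.0253), and its change under PTH was -0.005 ± 0.087 (adjusted p = 0.976). Zbtb20, a repressor of Afp, fell by 0.67 ± 0.09 (adjusted p = 1.15e-06) and rose by 0.45 ± 0.09 (adjusted p = 0.00024). Cebpa, a hepatocyte differentiation factor, was 165, 66.9 and 145 CPM and changed by -1.31 ± 0.12 and 1.12 ± 0.12. Zhx3 fell by 0.85 in Cirrhosis and rose by 0.72 under PTH. Among 15 Golgi genes beside Golm1, 3 rose and 6 fell in Cirrhosis, against 25.5% and 25.0% over all fitted genes. The 3 became 5 without Cirrhosis-PTH replicate 4. The members with the smallest p were Gorasp1 at -0.59, Glg1 at 0.39, Man1a at -0.43 and Golga2 at -0.30, all past the threshold.

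**Figure D5:**
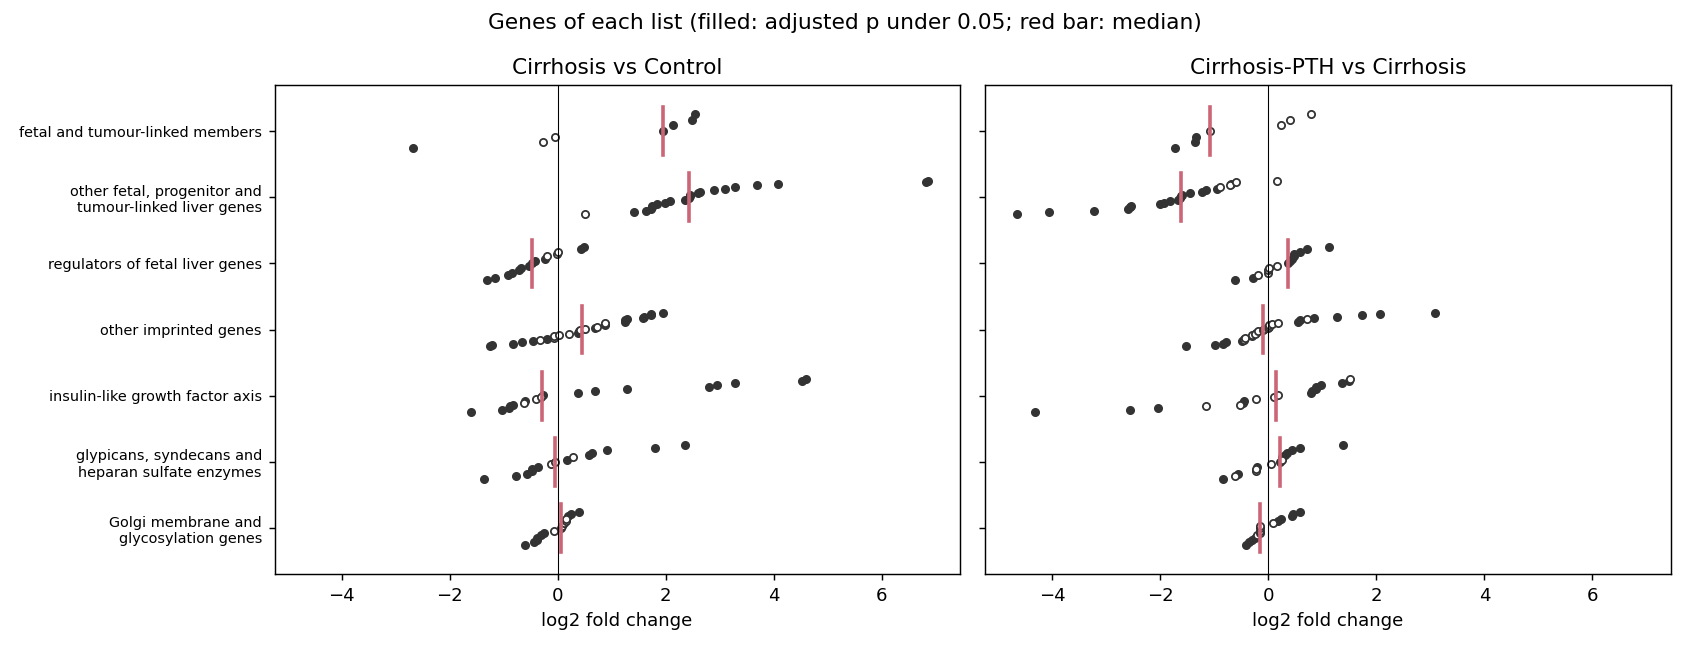
Log2 fold change of each fitted gene by list in Cirrhosis against Control (left) and Cirrhosis-PTH against Cirrhosis (right). Filled points passed the test and the bar is the median of the list. The other fetal, progenitor and tumour-linked genes lie mostly above 0 in Cirrhosis against Control and below 0 in Cirrhosis-PTH against Cirrhosis, while the imprinted, glypican, Golgi and insulin-like growth factor lists lie on both sides of 0.

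Markers of several other cell types also differed between the groups. Those of stellate cells and fibroblasts summed to 255 to 396 CPM in Control, 793 to 1063 in Cirrhosis and 350 to 732 in Cirrhosis-PTH, with 7 of 8 called higher in Cirrhosis and 7 called lower under PTH. For macrophages the sums were 74.2 to 109, 166 to 225 and 97.8 to 136 CPM, with 5 of 6 higher in Cirrhosis and 1, the Kupffer cell lectin Clec4f, lower (62.5 against 38.7 CPM). Of 4 endothelial markers 1 rose and 1 fell in Cirrhosis and likewise under PTH. Of 7 fitted erythroid markers 2 fell in Cirrhosis and 2 rose under PTH. Those of dividing cells were 3.79 to 10.3, 16.2 to 29.8 and 7.58 to 14.2 CPM, with all 5 genes higher in Cirrhosis. Hepatocyte markers summed to 46287 to 62468, 31133 to 51378 and 46388 to 51727 CPM, with all 6 lower in Cirrhosis. Under PTH 5 of the 6 hepatocyte markers rose, while 4 of 6 macrophage markers and 2 of 5 markers of dividing cells fell. In these 3 lists none was called the other way under PTH. Beside these and the earlier marker counts, 25.5% of all fitted genes rose and 25.0% fell in Cirrhosis, and 20.1% rose and 18.6% fell under PTH. The part of these cell types in the results was not tested.

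Divided by exon length, which lets genes be compared, the order of the mean levels changed between groups. In Control it was Tff3 at 6.81 ± 6.24 CPM per kb, then Cd24a (0.716), Peg3 (0.674), Golm1 (0.484), Gpc3 (0.249), Igf2bp3 (0.104), H19 (0.0767) and Igf2 (0.0147). In Cirrhosis Cd24a was first at 3.15 ± 0.588 and Golm1 next at 2.80 ± 0.769, followed by Tff3 (1.05), Gpc3 (0.916), Peg3 (0.554), H19 (0.440), Igf2bp3 (0.10) and Igf2 (0.0611). In Cirrhosis-PTH the order was Gpc3 at 1.58 ± 0.978, Cd24a (1.22), Golm1 (1.11), Peg3 (0.652), Tff3 (0.50), H19 and Igf2bp3 (0.132 each) and Igf2 (0.0348). Only Golm1 and Tff3 in Cirrhosis were separated by more than their SDs, and all other neighbours in these orders were not. Igf2 is placed by its own row without the Gm49394 counts, which may hold some of its reads, so its place is uncertain. The rows of Golm1 and Igf2bp3 could hold reads of Naa35 and Malsu1 on the opposite strand, so their places are uncertain too.

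The genes with the most similar patterns were found by the root mean square difference of log2 CPM over the 18 libraries, centred on the Control mean. Anxa1 (0.25 log2 units) and Sorl1 (0.26) were nearest to Golm1, and Anxa1 was 2.22, 13.4 and 5.24 CPM in Control, Cirrhosis and Cirrhosis-PTH. Fam129b (0.25) and the basement membrane collagen Col4a2 (0.26) were nearest to Cd24a. For Gpc3 the nearest were Ncam1 (0.84) and Col4a6 (0.88), both of which rose against Control in Cirrhosis and in Cirrhosis-PTH and were not called between them. H19 had Thsd7a (0.95) and Obsl1 (0.97), Tff3 had Snhg11 (1.37) and Enho (1.5), Peg3 had Ttc3 (0.28) and Pde7b (0.28), and Igf2bp3 had Tmem198b (0.26) and Map4k2 (0.26). The larger distances of H19, Gpc3 and Tff3 belong to genes with a wider spread between libraries of 1 group.

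Replicate 3 of Cirrhosis-PTH was the highest library of its group for 7 of the 8 genes, all but Igf2bp3. It also had its group's highest marker sums for stellate cells and fibroblasts (732 CPM), macrophages (136), cholangiocytes (94.3), mesothelium (34.7) and neutrophils (7.44). Other libraries were highest for hepatocyte, B cell, erythroid, endothelial and dividing cell markers, and the part of cell composition was not tested. In Cirrhosis, replicate 3 was highest for 5 (H19, Igf2, Gpc3, Peg3 and Igf2bp3) and replicate 2 for the other 3 (Golm1, Tff3 and Cd24a).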

How the data were processed

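Liver RNA was sequenced after removal of ribosomal RNA, 1 library per mouse. The authors deposited whole-number, unscaled counts for each gene. The submitters' processing notes name GRCm38, Trim Galore and cutadapt 4.2, Bowtie2 and Bowtie 1.3.1, StringTie 2.1.5 and HISAT2 2.2.1, with no roles. The counter, strand setting and annotation release are not given in the sources used here. The 3 groups (18 libraries) were fitted jointly with edgeR 4.0.16 under R 4.3.3: filterByExpr, TMM, robust quasi-likelihood F-test, two-sided, Benjamini-Hochberg, threshold 0.05. Igf2, removed by the filter, had an exact permutation test. CPM were computed from the deposited counts and TMM library sizes. Positions, exon lengths and overlaps come from GENCODE mouse release M21. The script was tested on simulated counts. Alternatives were DESeq2 1.42.0, other scalings, no filter, libraries left out and a replicate block. Named genes were the 8 members, the 4 with the smallest p of each list in Cirrhosis against Control, a fixed set of relatives, and the 2 nearest patterns per member, except that some listed genes are not reported here. The members and lists were chosen with earlier results of these data known. P-values judge differences between groups against the spread between these mice.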

Additional observations from a re-analysis of the deposited data

Results flagged for a closer look

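Within a group, 1 library stood apart from the other 5 in 5 of 24 sets of values (8 genes in 3 groups). For normally distributed values, chance flags about 1 in 20. Igf2, with libraries at 0, is not so distributed, and the sets share libraries, so the 5 of 24 cannot be judged against that rate. Each was a replicate 3. For Igf2 these were Control replicate 3 at 0.406 CPM (next 0.0893), Cirrhosis replicate 3 at 1.77 CPM (next 0.189) and Cirrhosis-PTH replicate 3 at 1.08 CPM (next 0.0993). For Peg3 they were Cirrhosis replicate 3 at 10.1 CPM (next 7.42) and Cirrhosis-PTH replicate 3 at 15.5 CPM (next 9.12). With the Gm49394 counts added to those of Igf2, Control replicate 3 was at 0.660 CPM (next 0.529). In the same sums, Cirrhosis replicate 3 was at 1.77 (next 1.36) and Cirrhosis-PTH replicate 3 at 1.08 (next 0.619). These sums were not put through the outlier test. The labels do not say whether the same number in different groups joins the mice, and the cause was not tested.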

How the results depend on the processing

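The calls of Golm1 in every comparison, of Gpc3 in both comparisons with Control and of Cd24a in both comparisons with Cirrhosis held under every alternative run. With 1 library left out, 10385 to 11142 genes passed in Cirrhosis against Control, 7724 to 8604 in Cirrhosis-PTH against Cirrhosis and 1293 to 2009 in Cirrhosis-PTH against Control. Of the 8 genes, 5, 2 to 3 and 3 to 4 passed. Same-numbered libraries did not deviate together (every correlation was between -0.064 and 0.051, and none of the libraries correlated best with its own number). With the number as a replicate block, 3 of the 8 genes passed in Cirrhosis against Control where 5 had. H19 was then 2.18 (adjusted p = 0.0641) and Tff3 -1.90 (adjusted p = 0.059) in Cirrhosis against Control, H19 -1.60 (adjusted p = 0.0829) in Cirrhosis-PTH against Cirrhosis, and Cd24a 0.75 (adjusted p = 0.0855) in Cirrhosis-PTH against Control. Igf2 with Gm49394 was 1.27 (adjusted p = 0.198) in Cirrhosis against Control and -1.94 (adjusted p = 0.0351) in Cirrhosis-PTH against Cirrhosis. Under the block, the genes lower in Cirrhosis-PTH than in Control went from 543 to 245.

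Values that changed sign were small or rested on 1 library, and none was called. With the block, Igf2bp3 in Cirrhosis against Control was 0.13, Peg3 0.038 there and 0.22 in Cirrhosis-PTH against Control, and Igf2 with Gm49394 -0.68 in the last. Without Control replicates 7 and 8 these were 0.079, 0.039, 0.24 and -0.32, and DESeq2 gave Igf2bp3 0.0068. With 1 library left out, Igf2bp3 ran from -0.17 to 0.052, Peg3 from -0.011 to 0.34 in Cirrhosis-PTH against Cirrhosis and from -0.29 to 0.083 in Cirrhosis-PTH against Control, and Igf2 with Gm49394 from -0.60 to 0.30. The log2 ratio of Igf2 means ran from -0.36 to 4.14, from -3.86 to 1.60 and from -1.81 to 3.33 in the 3 comparisons in order. Without replicate 3 of Cirrhosis and of Cirrhosis-PTH together, an alternative chosen after seeing the data, it was -0.36 in Cirrhosis against Control and -1.81 in Cirrhosis-PTH against Control, H19 in Cirrhosis-PTH against Cirrhosis was -1.59 (adjusted p = 0.0591), and Igf2 with Gm49394 was -0.60 in Cirrhosis-PTH against Control. Otherwise the cause was not tested. Igf2, Dlk1, Igf2bp1 and Usp29 had too few counts for the fit.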

Other observations

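Meg3, Rian and Rtl1 lie in the imprinted Dlk1-Meg3 cluster, as does Mirg, and Rian, Rtl1 and Mirg are named here after their values were seen. Rian was 1.06, 1.44 and 6.06 CPM in Control, Cirrhosis and Cirrhosis-PTH. It rose in Cirrhosis-PTH against Cirrhosis by 2.07 ± 0.44 on the log2 scale (edgeR's quasi-likelihood test, adjusted p = 0.00102), with every Cirrhosis-PTH library above every library of the other groups. Rtl1, transcribed from the paternal chromosome, was 0.125, 0.135 and 1.17 CPM and rose by 3.09 ± 0.61 (adjusted p = 0.000337), again without overlap. Whether the counting used strand is not stated, so reads from the opposite strand could be in the Rtl1 row. Mirg, a further noncoding RNA of the cluster, was 0.234, 0.555 and 0.912 CPM, and its libraries overlapped, with 0.71 ± 0.45 in Cirrhosis-PTH against Cirrhosis (adjusted p = 0.236) and 1.99 ± 0.49 against Control (adjusted p = 0.0134). Dlk1 itself had 4, 61 and 20 counts and was not fitted.

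Of the other trefoil genes, also named after their values were seen, Tff1 had 40, 32 and 68 counts in the 3 groups and Tff2 had 0, 65 and 8, too few to be fitted.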
